A study of Mus musculus with 28 samples.

Results

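The miRNAs described here are those of the large Sfmbt2 cluster of the mouse and their relatives elsewhere in the genome, taken as every row of the array table named miR-297, miR-466, miR-467 or miR-669 with any letter or arm suffix. The rule chose by name alone and found 33 of 569 rows, of which 19 are named 5p, 9 are named 3p and 5 carry no arm suffix. Of these, 25 had values in cartilage, among 438 rows measured there, 32 had values in subchondral bone, among 490 rows, and 24 had values in both tissues, among 359 shared rows. miR-669h-3p was measured in cartilage alone, and 8 members were measured in bone alone.

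Agilent SurePrint mouse miRNA arrays (design release 21) were hybridised with 70 ng of labelled total RNA per array, from medial tibial cartilage or the subchondral bone beneath it, cut out by laser from frozen sections. All mice were wild-type males with C57BL6 as the strain label (WT in the bone titles), aged 10 to 12 weeks at surgery. The treatment text also names Jaffa mice, and no sample label carries that name. In both knees either the ligament holding the medial meniscus was cut, or a sham operation exposed it without cutting. The cut destabilizes the meniscus (DMM) and is used to model post-traumatic osteoarthritis. The 28 arrays formed 8 groups. In cartilage these were sham and DMM at 1 week and sham and DMM at 6 weeks, with 3 arrays each, every array made from RNA pooled from 3 mice. In bone the same 4 combinations had 4 arrays each, every array from 1 mouse. For cartilage the spread behind a p-value is therefore that of pools, and for bone that of single mice.

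For the cartilage arrays the characteristics field says subchondral bone, whereas the source field says cartilage. miR-140-3p, a miRNA abundant in chondrocytes, averaged 13.41 ± 0.19 (SD, n = 12) on the log2 scale in those arrays and 9.34 ± 0.33 (SD, n = 16) in the others, and the source field was followed. The median of an array lay between 6.26 and 6.32 for cartilage and between 6.17 and 6.39 for bone. In cartilage 23 of the 25 members had a mean within 1 log2 unit of the array median, and in bone 26 of 32 did. Detection calls were not used here, and how far these members stood above background is unknown. In bulk tissue, fewer cells of a type and less RNA per cell cannot be told apart.

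A miRNA precursor folds into a hairpin, and Dicer releases a short duplex from it. The strand from the left side of the hairpin is the 5p arm and the strand from the right side the 3p arm. Either strand can be loaded into an Argonaute protein, where bases 2 to 8, the seed, pair with target mRNAs. The Sfmbt2 cluster is a rodent-specific array of repeated miRNA hairpins in an intron of Sfmbt2, which encodes a Polycomb group protein. The locus is imprinted and expressed from the paternal allele in the placenta, and deletion of the cluster impairs placental development. Outside the placenta, miR-466h-5p has been linked to apoptosis of glucose-deprived cells and miR-669a to repression of MyoD in heart progenitors. The repeats are built on alternating bases, so many members resemble each other closely. How well the probes separate them was not tested, and the members cannot be counted as independent measurements.

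RefSeq places 71 of its 81 mouse genes of the 4 families inside Sfmbt2 on chromosome 2. By gene name, 24 members came only from genes inside Sfmbt2, 6 only from genes elsewhere (both arms of miR-466i, miR-466j, miR-466q, miR-467f and miR-669n), and 2, the arms of miR-466f, from genes in both places. miR-466a-5p was not matched to a gene. RefSeq mature sequences were matched for 5 of the 33 members, all from genes outside Sfmbt2, and for 81.9% of the 569 rows. The 5 are shown as the members with a matched sequence, and they fall into a GU-rich and an AC-rich kind. In cartilage at 1 week both GU-rich members rose, and of the 3 AC-rich members 1 fell and the others did not pass. Seeds are in capitals, written 5′ to 3′, and coordinates are from GRCm38.p6.
miR-669n: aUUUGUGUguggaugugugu
miR-466j: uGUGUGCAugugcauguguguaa
miR-466i-3p: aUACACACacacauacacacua
miR-467f: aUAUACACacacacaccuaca
miR-466q: gUGCACACacacacauacgu
miR-669n lies at chr3:115979905-115979924 on the plus strand and miR-466j at chr10:60960802-60960824 on the plus strand. miR-466i-3p lies at chr13:17747552-17747573 on the plus strand, miR-467f at chr11:69635419-69635439 on the minus strand and miR-466q at chr3:28419988-28420007 on the plus strand. G and U make up 73.9% of miR-466j and 13.6% of miR-466i-3p. No 2 of the 5 share a seed.

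In cartilage 1 week after DMM, every measured 5p member rose and every measured 3p member had a lower mean than in sham. The 13 members named 5p rose with a median log2 fold change of 0.99 and a range of 0.59 to 1.81. Of the 7 members named 3p, 3 fell, and the 7 had a median of -0.53. Of the 5 members with no arm suffix, 2 rose, 1 fell and 2 did not pass. Over all 25 members 15 rose and 4 fell, against 15.8% of all 438 rows called higher and 12.1% called lower, and the median over all rows was -0.02. A call here is an adjusted p under 0.05 from limma, with Benjamini-Hochberg adjustment over all rows of the tissue. Values are log2 signals throughout, and differences are DMM minus sham.

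Among the 5p members, miR-466i-5p, which comes from a chromosome 13 gene outside the cluster, moved most. It read 11.01, 11.18 and 11.18 in the 3 sham arrays at 1 week and 12.68, 12.95 and 13.18 in the 3 DMM arrays. Every DMM array was above every sham array, and the rise was 3.51-fold, a log2 fold change of 1.81 ± 0.19 (SE, n = 3 per group, limma adjusted p = 0.000134). At 6 weeks the sham arrays read 11.61, 11.21 and 11.10 and the DMM arrays 12.68, 12.92 and 12.21, a rise of 1.30 ± 0.19 (SE, limma adjusted p = 0.00274). The groups were again apart.

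miR-669l-5p, from inside Sfmbt2, read 6.47, 6.59 and 6.60 in sham and 7.49, 7.90 and 8.21 in DMM at 1 week, a rise of 1.31 ± 0.21 (SE, limma adjusted p = 0.00199). miR-466m-5p read 6.41, 6.47 and 6.46 in sham and 7.27, 7.68 and 7.99 in DMM, a rise of 1.20 ± 0.21. miR-669e-5p read 6.10, 6.18 and 6.26 in sham and 6.93, 7.38 and 7.65 in DMM, a rise of 1.14 ± 0.20. In all 3 of these miRNAs the sham arrays lay close together and the DMM arrays were spread more widely above them. miR-466f-5p read 5.61, 5.73 and 5.82 in sham and 6.48, 6.72 and 6.97 in DMM, a rise of 1.00 ± 0.17. miR-669o-5p read 5.74, 5.86 and 5.91 in sham and 6.54, 6.86 and 7.08 in DMM, a rise of 0.99 ± 0.17. Neither had an array of the wrong group inside the other group's range.

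miR-466h-5p, the apoptosis-linked member, read 6.00, 6.10 and 6.03 in sham and 6.66, 7.03 and 7.40 in DMM at 1 week, a rise of 0.99 ± 0.19 (SE, limma adjusted p = 0.00417). The smallest 5p rise was that of miR-297c-5p, 0.59 ± 0.14, from 5.23, 5.20 and 5.08 to 5.60, 5.74 and 5.94. The remaining 5 members (miR-466c-5p, miR-467c-5p, miR-669b-5p, miR-669f-5p and miR-669k-5p) rose by 0.78 to 0.97. The DMM arrays stood above all sham arrays in 13 of 13 5p members at 1 week and in 13 of 13 at 6 weeks. Over all 438 rows the shares were 24.9% and 17.4%.

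**Figure D1:**
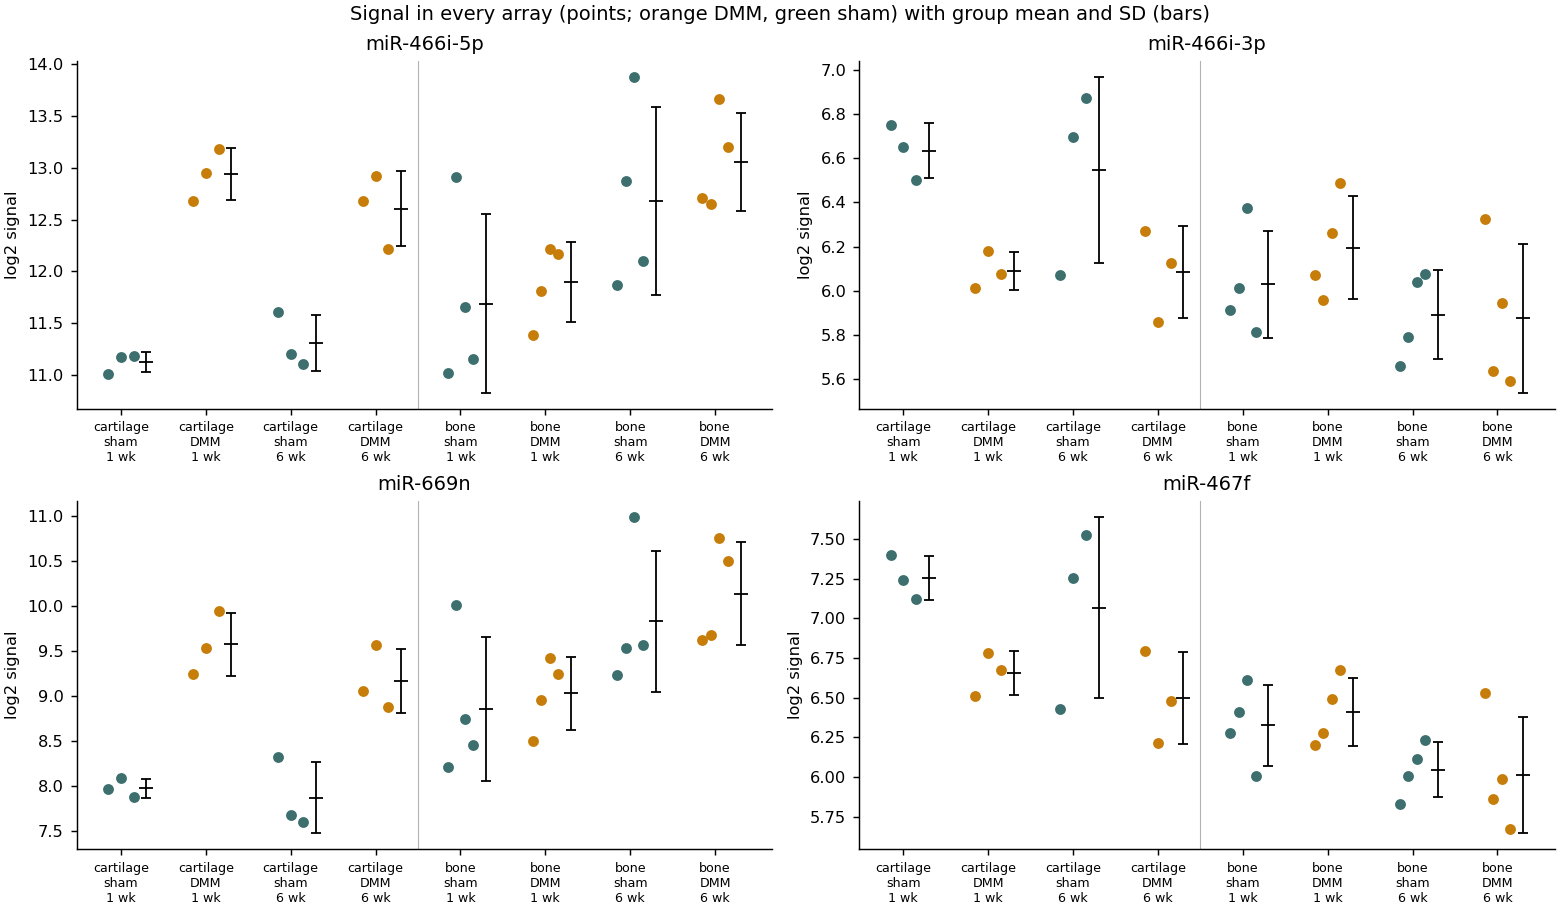
Log2 signal (vertical axis) of miR-466i-5p, miR-466i-3p, miR-669n and miR-467f in each array of the 8 groups (horizontal axis). Points are arrays and bars are the group mean and SD. miR-466i-5p and miR-669n were higher in all cartilage DMM arrays than in the sham arrays of the same week, and in bone the DMM and sham arrays of a week overlapped.

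The 3p members shared the opposite sign and moved less. miR-466i-3p, the partner strand of miR-466i-5p, read 6.75, 6.65 and 6.50 in sham and 6.01, 6.18 and 6.07 in DMM at 1 week. It fell 1.46-fold, a log2 fold change of -0.54 ± 0.18 (SE, n = 3 per group, limma adjusted p = 0.0457). miR-466f-3p read 6.82, 6.57 and 6.46 in sham and 6.00, 6.22 and 6.04 in DMM, a change of -0.53 ± 0.16 (SE, limma adjusted p = 0.0316). miR-669f-3p read 6.07, 6.05 and 5.99 in sham and 5.47, 5.60 and 5.45 in DMM, a change of -0.53 ± 0.15 (SE, limma adjusted p = 0.0222). These 3 passed the test, and each had all DMM arrays below all sham arrays.

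miR-669p-3p read 7.20, 7.13 and 7.08 in sham and 6.32, 6.68 and 6.53 in DMM, a difference of -0.62 ± 0.26 (SE, limma adjusted p = 0.0866). miR-669c-3p read 6.31, 6.33 and 6.30 in sham and 5.62, 5.76 and 5.75 in DMM, a difference of -0.61 ± 0.23 (SE, limma adjusted p = 0.0698). miR-466h-3p read 7.65, 7.41 and 7.30 in sham and 6.86, 7.03 and 6.94 in DMM, a difference of -0.51 ± 0.21 (SE, limma adjusted p = 0.091). These 3 did not pass although their groups were apart at 1 week. The fit shares its spread with the 6 week arrays, where the sham arrays of miR-669p-3p read 6.29, 7.26 and 7.45. miR-669h-3p, the only 3p member with overlapping groups, differed by -0.24 ± 0.19 (SE, limma adjusted p = 0.39).

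Among the members with no suffix, miR-669n and miR-466j went with the 5p arms. miR-669n read 7.96, 8.09 and 7.87 in sham and 9.24, 9.54 and 9.94 in DMM at 1 week, a 3.03-fold rise, 1.60 ± 0.23 on the log2 scale (SE, limma adjusted p = 0.00108). miR-466j read 5.78, 5.86 and 5.88 in sham and 6.51, 6.85 and 7.11 in DMM, a rise of 0.98 ± 0.18 (SE, limma adjusted p = 0.00272). These are the GU-rich sequences printed above.

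The other members with no suffix went with the 3p arms. miR-466g read 6.60, 6.27 and 6.30 in sham and 5.93, 6.02 and 5.79 in DMM at 1 week and fell by 0.48 ± 0.14 on the log2 scale (SE, limma adjusted p = 0.0204). miR-467f read 7.40, 7.24 and 7.12 in sham and 6.51, 6.78 and 6.67 in DMM, a difference of -0.60 ± 0.24 (SE, limma adjusted p = 0.0786). miR-466q read 6.81, 6.80 and 6.75 in sham and 6.03, 6.34 and 6.18 in DMM, a difference of -0.60 ± 0.24 (SE, limma adjusted p = 0.0814). All 3 had every DMM array below every sham array, and miR-467f and miR-466q, which did not pass, are AC-rich sequences printed above. In all, 15 members had every DMM array above every sham array at 1 week and 9 had every DMM array below, against 24.9% and 23.3% of all rows.

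**Figure D2:**
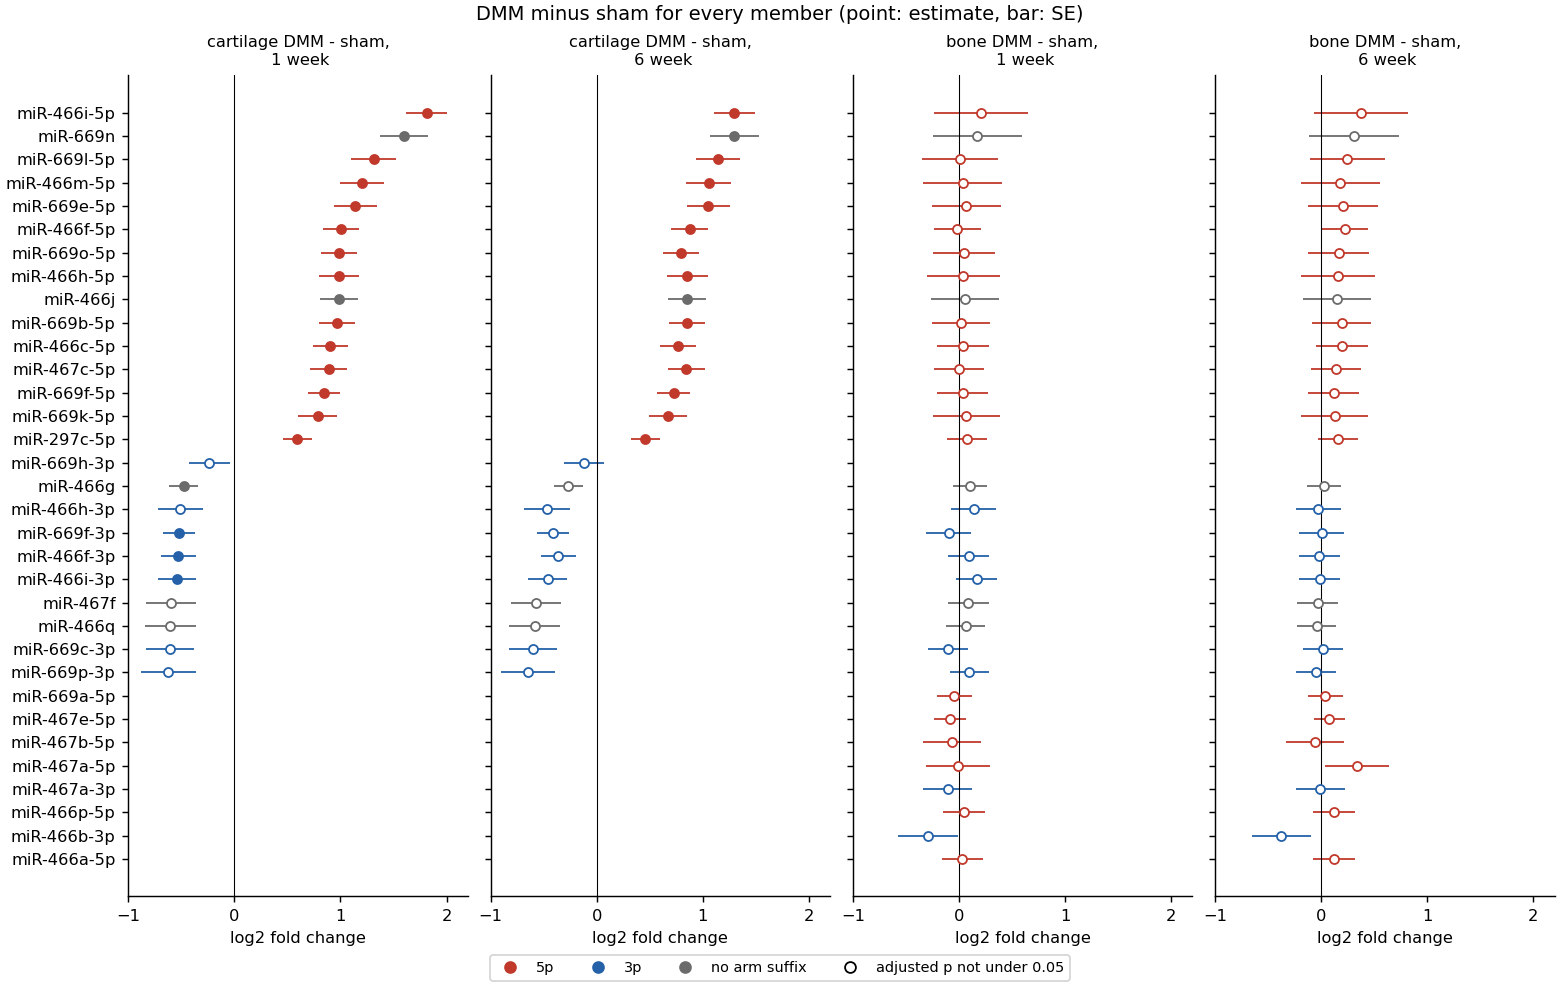
Log2 fold change, DMM minus sham (horizontal axis), of every measured member (vertical axis) in cartilage and bone at 1 and 6 weeks. Points are limma estimates with SE bars, red for 5p, blue for 3p and grey for no suffix, and filled points passed an adjusted p of 0.05. In cartilage the 13 5p members all lie above 0 and the 7 3p members all lie below 0 at both weeks, and in bone no point is filled.

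The 6 week cartilage arrays repeated the order. All 13 5p members rose, by 0.46 to 1.30 with a median of 0.85, and miR-669n (1.30 ± 0.23) and miR-466j (0.86 ± 0.18) rose too. The 7 3p members had differences from -0.65 to -0.12 with a median of -0.46, and none passed limma's test. An unadjusted p under 0.05 was held by 6 of the 7, against 167 of 438 rows. Of 25 members 15 rose and 0 fell, against 9.59% of all rows called higher and 7.31% called lower, and the median over all rows was -0.04. In 15 members the DMM arrays stood above all sham arrays, and in 0 below, against 17.4% and 18% of all rows. The members called higher were those called higher at 1 week. Without DMM replicate 2 at 6 weeks, 7 members rose, among 16 rows higher over the table, against 42 with all arrays. miR-297c-5p, with an adjusted p of 0.0414 by limma, passed in 8 of 19 alternatives.

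Sham replicate 1 at 6 weeks stood apart from the other 2 sham pools of its group. Over the 13 5p and 6 3p members measured in both tissues, its 5p median was 6.33 and its 3p median 6.07, against 5.90 and 5.69 for 5p and 6.60 and 6.78 for 3p in the other 2 pools. On the 5p side it lay between the other sham arrays and the DMM arrays, whose 5p medians were 6.54 to 7.09 over both weeks. Without it, 15 members rose and 9 fell at each week, and calls over the table also became more frequent, with 75 rows higher and 66 lower at 1 week and 78 higher and 88 lower at 6 weeks. The lower calls also rested on other arrays: at 1 week 0 members fell without DMM replicate 3, when 8 rows fell in all, or without sham replicate 1, when 35 did. A single member fell without DMM replicate 1, sham replicate 2 or sham replicate 3, when 56, 47 and 10 rows fell in all. After centring on the 75th percentile the median over all rows at 1 week was -0.11, and 15 members rose and 9 fell, against 56 rows higher and 86 lower over the table. As deposited, 69 rows were higher and 53 lower.

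**Figure D3:**
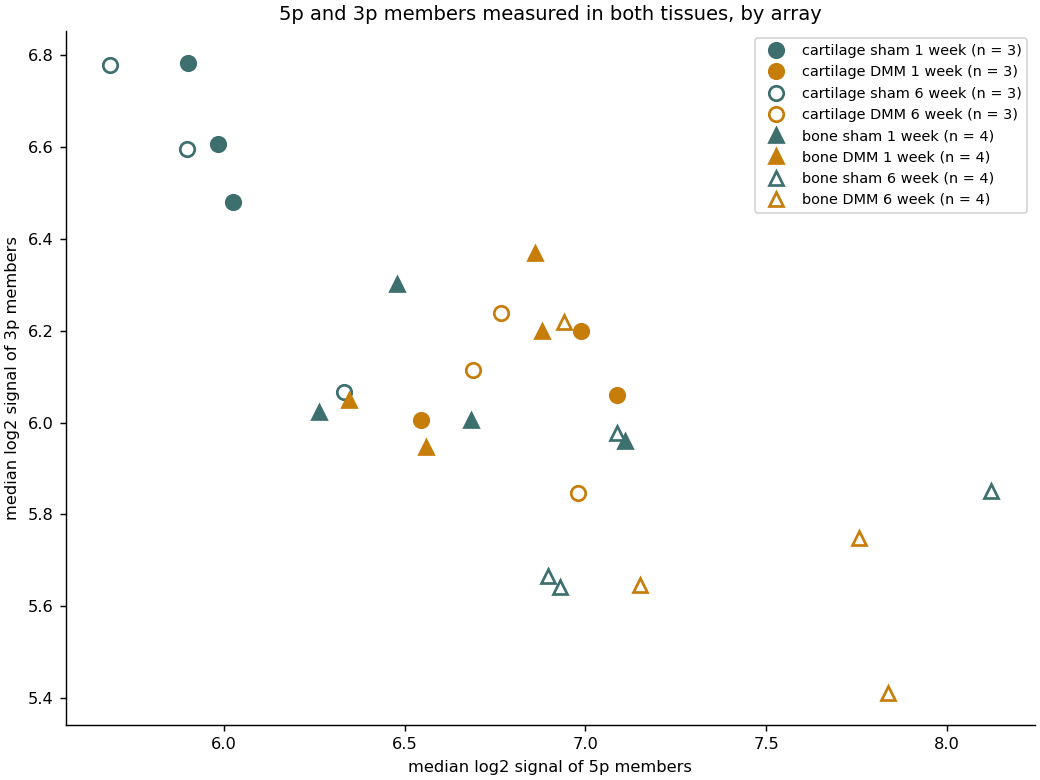
Median log2 signal of the 6 3p members (vertical axis) against that of the 13 5p members (horizontal axis) measured in both tissues. Each symbol is an array, circles for cartilage and triangles for bone, filled for 1 week and open for 6 weeks. Among the cartilage arrays, sham lies at upper left of DMM with 1 exception at 6.33 and 6.07, and among the bone arrays most 6 week arrays lie at lower right of the 1 week arrays. The tissues share axes, and their levels are not to be compared.

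Unequal change of the arms was tested directly on the 5p minus 3p difference of each array, fitted over the 38 names with both arms in cartilage. This difference does not depend on how an array is centred, and its absolute level compares 2 probes and is not a ratio of abundances. At 1 week it rose for miR-466f, miR-466h, miR-466i and miR-669f, that is 4 of 4 member names, against 13.2% of all names called higher and 13.2% called lower. At 6 weeks it rose for the same 4 names, against 18.4% and 10.5%. The fifth name higher at 1 week was miR-574, whose arms are described with the repeats.

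The arm difference of miR-466i was 4.26, 4.53 and 4.68 in sham and 6.67, 6.77 and 7.10 in DMM at 1 week, a rise of 2.35 ± 0.31 (SE, n = 3 per group, limma adjusted p = 9.49e-05). At 6 weeks it was 5.54, 4.51 and 4.23 in sham and 6.41, 7.06 and 6.09 in DMM, a rise of 1.76 ± 0.31 (SE, limma adjusted p = 0.00168). The arrays did not overlap at either week. For miR-466f the difference was -1.20, -0.84 and -0.64 in sham and 0.49, 0.50 and 0.93 in DMM at 1 week, a rise of 1.53 ± 0.29. For miR-466h it was -1.65, -1.31 and -1.27 in sham and -0.20, -0.01 and 0.46 in DMM, a rise of 1.49 ± 0.34. For miR-669f it was -0.50, -0.36 and -0.22 in sham and 0.79, 0.97 and 1.28 in DMM, a rise of 1.37 ± 0.25. At 6 weeks the rises of these 3 names were 1.24 ± 0.29, 1.32 ± 0.34 and 1.14 ± 0.25, and miR-466h did not pass without DMM replicate 2 at 6 weeks or with only the 6 week groups in the fit.

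**Figure D4:**
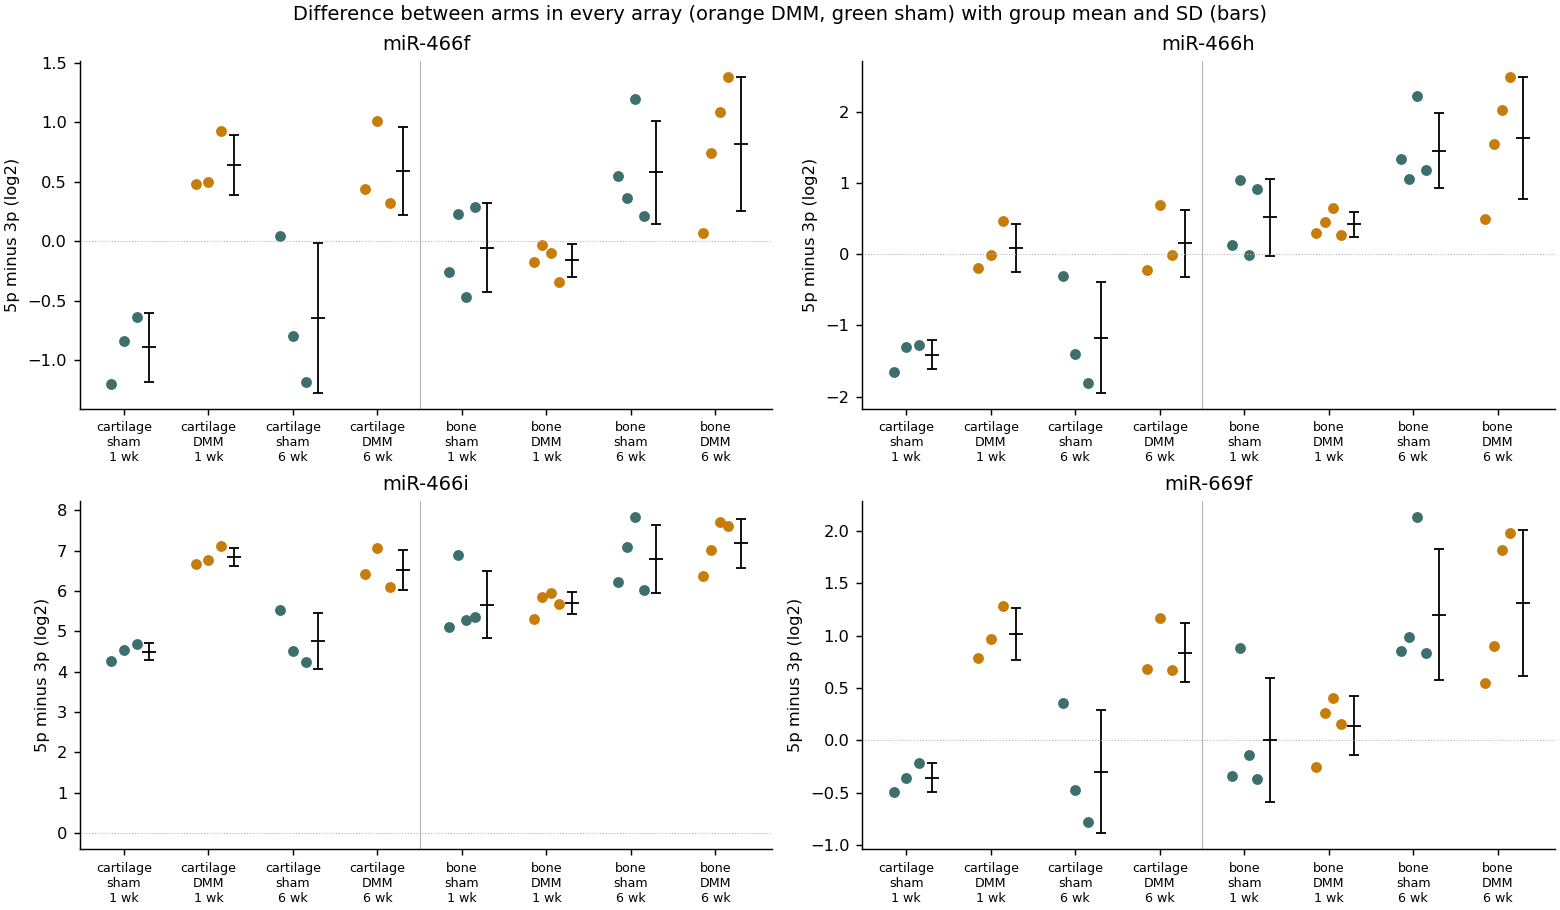
Difference between the 5p and the 3p signal (log2, vertical axis) for miR-466f, miR-466h, miR-466i and miR-669f in each array of the 8 groups (horizontal axis). Points are arrays and bars are the group mean and SD. In cartilage the DMM arrays lie above the sham arrays at 1 week, and in bone the 6 week arrays of both operations lie mostly above the 1 week arrays.

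Time alone moved no member past the threshold in cartilage. The DMM effect did not pass a difference between weeks for any member, with 0 of 438 rows called higher and 0 called lower (0% each, limma). At an unadjusted p under 0.05 there were 0 members and 13 of 438 rows. The largest such difference was that of miR-466i-5p, -0.51 ± 0.27 with a 95% interval of -1.10 to 0.07. Between sham at 6 weeks and sham at 1 week 0 members passed, against 0.228% of rows called higher and 0% lower. An unadjusted p under 0.05 in limma was held by 1 of 25 members and by 77 of 438 rows.

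In bone, DMM moved no member past the threshold. At 1 week the 19 5p members had a median difference of 0.04 and a range of -0.08 to 0.21, and of the 8 3p members 4 lay above and 4 below 0. At 6 weeks the 5p median was 0.16, with 18 of 19 above 0, and the 3p median was -0.02. Over all rows 244 of 490 lay above 0 at 6 weeks, and members that vary together are not independent counts. With limma 0% of all 490 rows were called in either direction at either week, and 3 and 2 rows had an unadjusted p under 0.05, none of them members. miR-466i-5p, as an example, ran from 11.02 to 12.91 in sham and 11.39 to 12.22 in DMM at 1 week, and from 11.87 to 13.88 and 12.65 to 13.66 at 6 weeks. The groups overlapped widely, and its difference was 0.21 ± 0.44 at 1 week (95% interval -0.73 to 1.14) and 0.37 ± 0.44 at 6 weeks (-0.56 to 1.31).

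The 1 week interval does not reach the 1 week cartilage value of 1.81 for miR-466i-5p, and the 6 week interval holds the 6 week cartilage value of 1.30. Whether the DMM effect differed by tissue was tested over the 359 shared rows and all 28 arrays. Of 24 members, 0 passed at 1 week (limma, 0.279% of rows called higher and 0% lower) and 0 at 6 weeks (0.557% and 0%). At an unadjusted p under 0.05 there were 20 members among 59 rows at 1 week and 2 members among 13 rows at 6 weeks. For miR-466i-5p the difference of effects was 1.60 ± 0.57 at 1 week (limma adjusted p = 0.176). All 13 5p members had a larger effect in cartilage than in bone at 1 week, with a median of 0.94, and all 6 3p members a smaller one, with a median of -0.63. Over all 359 shared rows 210 had a larger effect in cartilage. The tissues thus differed in which calls passed, and a difference of effect was not shown.

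The bone arrays differed more by week than by operation. From 1 to 6 weeks after a sham operation 17 of 19 5p members had a higher mean, with a median of 0.53, and 8 of 8 3p members had a lower mean, with a median of -0.35. None passed limma's test, 0% of rows were called in either direction, and the lowest adjusted p among members was 0.414. At an unadjusted p under 0.05 there were 15 of 32 members and 54 of 490 rows. Over all 490 rows 205 had a higher mean at 6 weeks, with a median of -0.09. The 6 week mice were numbered 5 to 26 in the titles and the 1 week mice 66 to 96. Time after surgery, age and any difference between these sets of mice cannot be told apart. The medians of the shared 5p members were 6.26 to 7.11 in bone sham at 1 week and 6.90 to 8.12 at 6 weeks, and those of the 3p members 5.96 to 6.30 and 5.64 to 5.98. Weighting arrays by their quality in limma raised calls over the whole table. It called 18 members higher and 3 lower here, among 78 rows higher and 62 lower of 490. For DMM against sham in bone it called 15 members higher at 6 weeks, among 54 rows, and 2 at 1 week, among 18 rows. For the tissue difference at 1 week it called 8 members higher and 8 lower, among 40 and 12 of 359 rows. The DMM effect did not pass a difference between weeks in bone for any member, nor for any row (0% in each direction, and 1 row at an unadjusted p under 0.05).

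The arm difference showed the same in bone, where 54 names had both arms, and 0% were called higher or lower at either week (limma, with 0 names at an unadjusted p under 0.05). For miR-466i it ran from 5.11 to 6.90 in sham and 5.32 to 5.96 in DMM at 1 week, and from 6.02 to 7.83 and 6.38 to 7.72 at 6 weeks. miR-467a, whose arms were both measured in bone alone, ran from -0.94 to -0.23 in sham and -0.65 to -0.12 in DMM at 1 week. Its DMM minus sham difference was 0.10 ± 0.22 at 1 week and 0.34 ± 0.22 at 6 weeks. The sham and DMM arrays of these names overlapped at both weeks.

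Members of an arm also varied together within groups. Each array's deviation from its group mean was taken, and Pearson correlations were computed between members as a description, since the arrays share their hybridisation and the probes share sequence. In the 12 cartilage arrays the median correlation was 0.95 over the 78 pairs of 5p members and 0.96 over the 21 pairs of 3p members. It was -0.58 over the 91 pairs of a 5p and a 3p member, all of them negative, and -0.01 over all pairs of rows. By the medians of the members measured in both tissues, sham pools that were high in 5p were low in 3p at each week. The DMM pools did not all do so. At 1 week DMM replicate 1 was lowest in both, with 6.54 for 5p and 6.01 for 3p. At 6 weeks DMM replicate 1 (6.77 and 6.24) was above replicate 3 (6.69 and 6.11) in both.

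In the 16 bone arrays the 5p members again varied together, with a median correlation of 0.94 over 171 pairs, and the 3p members less so, with 0.44 over 28 pairs. A 5p with a 3p member had a median of -0.17 over 152 pairs. Of the members measured in bone alone, miR-467a-5p, miR-467b-5p and miR-467e-5p departed from most other 5p members. Their correlations with miR-466i-5p were -0.65, -0.86 and -0.07, and miR-669a-5p had 0.49, whereas miR-669l-5p had 0.90 and miR-669n 0.96. miR-467a-3p had -0.91 and miR-669f-3p -0.83, against 0.24 for miR-466i-3p. miR-467a-5p and miR-467b-5p were also the only 5p members with a lower mean at 6 than at 1 week in bone sham mice, by -0.32 ± 0.30 and -0.29 ± 0.27, which did not pass.

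The place of the genes did not separate the members that rose from those that fell. In cartilage at 1 week 11 of 11 5p members encoded only inside Sfmbt2 rose, with a median of 0.97 and a highest value of 1.31. Over all 438 rows 15.8% were called higher and 12.1% lower. The only 5p member encoded only elsewhere, miR-466i-5p, rose by 1.81, and miR-466f-5p, with genes in both places, by 1.00. With so few members outside Sfmbt2, a difference between the places was not tested. Of the 5 3p members inside Sfmbt2, 1 fell and the median was -0.53. The 4 members with no suffix encoded elsewhere split into miR-669n and miR-466j, which rose, and miR-466q and miR-467f, which had lower means.

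The repeated bases in the sequences printed above are also found in miRNAs outside the 4 families. The letters GUGUGU and ACACAC were searched in the mature strand of all 1679 RefSeq mouse miRNAs in the table, and 1.01% held the first and 0.655% the second. No sequence printed here holds both. Among the matched rows outside the members, 11 held GUGUGU and 3 held ACACAC. The 6 of the former with the largest difference in cartilage and the 2 of the latter measured there are shown for comparison with the members, with seeds in capitals.
miR-1187: uAUGUGUGuguguauguguguaa
miR-3082-5p: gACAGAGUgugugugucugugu
miR-574-5p: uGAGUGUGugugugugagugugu
miR-32-3p: cAAUUUAGugugugugauauu
miR-6348: uCAGCCUUuauaaggugugugu
miR-672-5p: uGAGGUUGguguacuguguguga
miR-329-3p: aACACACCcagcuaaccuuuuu
miR-574-3p: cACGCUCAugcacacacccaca
In GRCm38.p6 miR-1187 lies at chr5:82798964-82798986 on the minus strand, miR-3082-5p at chr17:25831406-25831427 on the minus strand and miR-32-3p at chr4:56895232-56895252 on the minus strand. The arms of miR-574 lie at chr5:64970328-64970350 and chr5:64970364-64970385 on the plus strand. miR-6348 lies at chr1:168490740-168490761 on the plus strand, miR-672-5p at chrX:104116228-104116250 on the minus strand and miR-329-3p at chr12:109713541-109713562 on the plus strand.

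All 8 GUGUGU miRNAs outside the families that were measured in cartilage rose at 1 week, with a median of 1.30 and a range of 0.47 to 1.92. At 6 weeks 7 of the 8 rose, with a median of 1.15. miR-1187 ran from 8.69 to 8.91 in sham and 10.34 to 11.04 in DMM at 1 week, a rise of 1.92 ± 0.23. miR-574-5p ran from 9.66 to 9.85 in sham and 11.25 to 11.85 in DMM, a rise of 1.82 ± 0.20. miR-3082-5p rose by 1.85, miR-32-3p by 1.46, miR-6348 by 1.14 and miR-672-5p by 1.12. None of these 6 has a seed in common with a member shown above, and the GUGUGU letters lie in the 3′ part of miR-6348 and miR-672-5p. Of the 349 matched rows with neither run of letters and outside the members, 38 rose and 43 fell at 1 week, with a median of -0.03.

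miR-329-3p, which holds ACACAC, ran from 7.27 to 7.48 in sham and 6.80 to 7.09 in DMM at 1 week and fell by 0.45 ± 0.15 on the log2 scale (SE, limma adjusted p = 0.041). miR-574-3p, the partner strand of miR-574-5p, ran from 7.07 to 7.34 in sham and 6.67 to 7.05 in DMM, a difference of -0.34 ± 0.13 (SE, limma adjusted p = 0.0764). The arm difference of miR-574 rose by 2.16 ± 0.24 at 1 week and 1.45 ± 0.24 at 6 weeks, beside the 1.37 to 2.35 and 1.14 to 1.76 of the 4 member names. In bone sham mice the 11 GUGUGU miRNAs outside the families all had a higher mean at 6 than at 1 week, with a median of 0.83. None of the 11 passed, with an adjusted p of 0.414 by limma. Of the 381 matched rows with neither run of letters and outside the members, 148 had a higher mean, with a median of -0.11. The part of the probes and of the sequence in these values was not tested.

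**Figure D5:**
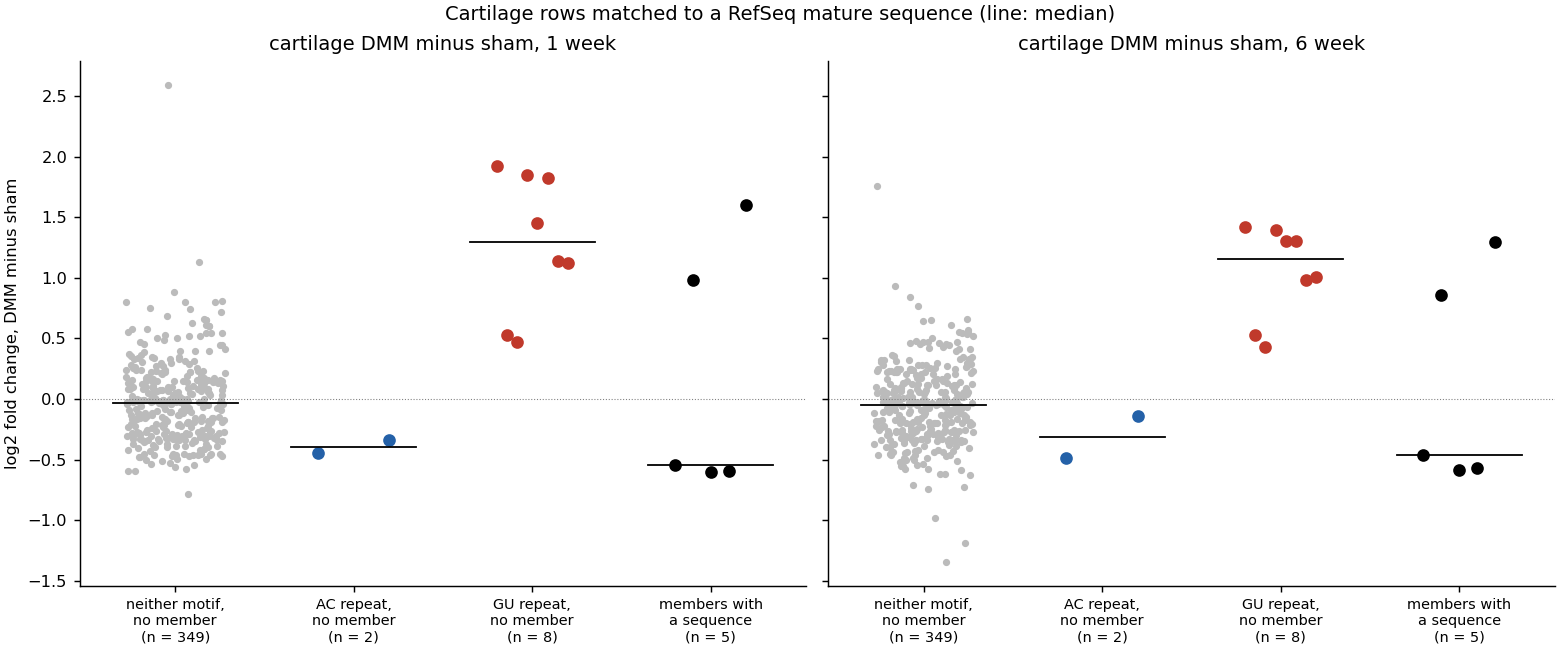
Log2 fold change, DMM minus sham (vertical axis), in cartilage at 1 and 6 weeks for rows matched to a RefSeq sequence, by the letters they hold (horizontal axis). Points are miRNAs and lines are medians. The 8 rows with the GU run outside the members lie above 0 at both weeks, and the 349 rows with neither run centre near 0.

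Other cell types were followed with marker miRNAs. In cartilage at 1 week 1 of 4 cartilage markers fell and 0 of 5 measured blood, 0 of 1 endothelial and 0 of 3 mesenchymal markers were called. Over all rows 15.8% were called higher and 12.1% lower. At 6 weeks 4 of 5 measured blood markers fell, against 7.31% of all rows called lower. The log2 summed signal of the 5 was 8.88 to 9.53 in DMM and 9.57 to 11.00 in sham, and at 1 week these sums were 8.93 to 9.39 and 8.90 to 9.50. Of 4 muscle markers miR-206-3p rose at both weeks (0.53 ± 0.13 each), and it holds GUGUGU, whereas the muscle markers miR-1a-3p, miR-133a-3p and miR-133b-3p had differences of -0.97 to -0.73 at 1 week that did not pass. The 5 blood markers had differences of -0.36 to -0.00 at 1 week, and their part in the members' values was not tested. In bone 0 markers were called at either week.

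An array score was computed from rows that are no members, as the first component of the bone arrays' deviations from their group means. These rows still held the GUGUGU miRNAs outside the families measured in both tissues, such as miR-1187 and miR-574-5p. In cartilage it was 2.43 to 3.40 in DMM and -1.01 to -0.41 in sham at 1 week, and -1.76 to 1.48 and -2.89 to -1.74 at 6 weeks, so it moved with the operation. With the score as a covariate, an alternative added after seeing the data, 0 members were called in cartilage at either week. Calls over all rows with the score are not given here, so this count cannot be read as particular to the members. With the score the 5p medians were 0.68 at 1 week and 0.64 at 6 weeks and the 3p medians -0.67 and -0.56. The 4 arm differences each kept an unadjusted p under 0.05, but none passed at either week. Their limma adjusted p at 1 week was 0.116 to 0.356. Without the score 13 of all 38 names had an unadjusted p under 0.05 at 1 week and 15 at 6 weeks. The number with the score is not given here. The parts of the score and of the operation in cartilage cannot be told apart with these arrays.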

How the data were processed

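miRNA signals were read from the deposited table of the series, 1 column per array, with 0 unused columns of sample values. The range of the deposited values is that of log2 signals, and they entered the fits without further scaling. Limma 3.20.9 is named in the submitters' processing notes. Their background correction, normalization and row filter, not given in the sources used here, could change the size of every difference. Rows with values differ between the tissues (438 and 490), so levels were not compared across tissues, except miR-140-3p. No count of reads or depth exists for arrays, and their number limits the precision.

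A group-means model was fitted per tissue with limma 3.58.1 in R 4.3.3 over all rows, and the tissue difference over all 28 arrays, treated as independent. The threshold was an adjusted p of 0.05. The fit was tested on simulated data. Members and lists were chosen with earlier results of these data known. Values per array are given for the 6 members of each arm with the largest cartilage difference at 1 week, and for 6 rows per repeat. miR-466h-5p and miR-297c-5p were added after their values were seen. For the cartilage pools, deviations from group means of same-numbered DMM and sham pools correlated by -0.478 to 0.0326. Pools of different numbers were not compared, so this cannot decide whether same-numbered pools were paired.

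Alternatives were quantile normalization, 75th percentile centring, a robust trended prior, array weights, dropping rows under the median level, only the groups compared, a replicate block, each array left out, and the array score.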

Additional observations from a re-analysis of the deposited data

Results flagged for a closer look

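In groups of 4 bone arrays, 6 of 128 combinations of member and group had an array set apart from the other 3 by Dixon's test, where chance gives about 1 in 20 (6.4). Sham replicate 22 at 6 weeks was highest in 3 of them. It read 7.20 for miR-466f-5p (others 6.20 to 6.34), 8.12 for miR-669b-5p (others 6.90 to 7.06) and 8.73 for miR-669e-5p (others 7.30 to 7.54). Sham replicate 26 at 6 weeks read 5.70 for miR-669c-3p (others 5.30 to 5.34), and sham replicate 96 at 1 week read 5.96 for miR-467a-5p (others 5.17 to 5.27). DMM replicate 77 at 1 week was lowest for miR-467e-5p with 5.46 (others 5.63 to 5.65).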

How the results depend on the processing

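Of 42 called results on single members and arm differences, none reversed under any alternative run. In cartilage at 1 week the 15 higher members became 0 with the array score and were 13 to 15 with each array left out. The 4 lower members became 9 with 75th percentile centring, 9 with array weights, 9 with only the groups compared, 2 without rows below the median level (16 members tested), 2 with the replicate block, 0 with the array score, and 0 to 9 with each array left out. At 6 weeks the 15 higher became 0 with the array score and 7 to 15 with each array left out, and the 0 lower became 9 with array weights and 0 to 9 with each array left out (9 without sham replicate 1). With each array left out, 34 to 75 of all rows were higher and 8 to 66 lower at 1 week. At 6 weeks these were 16 to 78 and 4 to 88. For most other settings calls over all rows are not given here, so these counts cannot be read as particular to the members. The 4 arm differences became 2 of 2 tested without rows below the median level and 0 with the array score at each week, and at 6 weeks 3 with only the groups compared and 3 to 4 with each array left out. With array weights the 0 calls in bone became 2 higher for DMM at 1 week, 15 higher for DMM at 6 weeks, and 18 higher and 3 lower for sham at 6 against 1 week. The last became 0 to 1 lower with each array left out (1 without sham replicate 68). The tissue difference at 1 week became 8 higher and 8 lower with array weights. The cause of these changes was not tested. The replicate block left 15 higher members at 1 week and 13 at 6 weeks, and pairs only by number. Signals lay mostly near the array median, and the smallest difference that bone arrays could show was not tested.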
